A study of Mus musculus with 8 samples.

Results

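Genes named Zfp and a number make up a large block of zinc finger transcription factor genes in the mouse nomenclature. Of the 373 such symbols among the 50615 genes of the count table, with the RNA-binding protein gene Zfp36 set aside, 219 were chosen by their level, a mean of at least 100 counts over the 8 libraries. A further 116 lay below that mean and were tested, and 38 had too few counts to be tested. The 219 genes were all protein coding and lay on 20 chromosomes, 49 of them on chromosome 7 and 34 on chromosome 17. Because their level chose them, levels are described here without a test. The genes next to the limit were Zfp189, Zfp235 and Zfp963 inside it, with means of 100.6, 103.5 and 107.7 counts, and Zfp973, Zfp784 and Zfp993 outside it, with means of 99.4, 97.9 and 96.7 counts.

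RNA came from bone marrow-derived macrophages (BMDMs) of male C57BL/6 mice, differentiated for 6 days in M-CSF (20 ng/ml), with 2 libraries per group from different mice. Ncoa6-KO mice (Ncoa6 fl/fl LysM CRE) carry Cre at the Lyz2 locus, which acts in myeloid cells, and Ncoa6-sufficient (WT) mice carry the same floxed Ncoa6 alleles (Ncoa6 fl/fl) without Cre. The cells of each genotype stayed in medium alone or received 100 ng/ml LPS (4 h) followed by 200 µg/ml monosodium urate (MSU) crystals (2 h). The comparisons ask how this class of genes responded to LPS + MSU in each genotype, and how it differed between genotypes under each condition.

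Most Zfp proteins carry C2H2 zinc fingers, small folds held by a zinc ion that read DNA bases, often in long tandem rows. Many also carry a KRAB box, which binds Trim28 (KAP1) and through it the histone methyltransferase Setdb1 and HP1 proteins, and these complexes silence retroelements and imprinted loci. Other Zfp proteins have no KRAB box and act at promoters, in corepressor complexes, or outside DNA, in RNA handling and ubiquitination.

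Library totals were 25281955 to 33673552 counts. Ncoa6 had 1515 and 1405 normalized counts in resting and 1297 and 1173 in stimulated WT libraries, against 784 and 622 in resting and 563 and 526 in stimulated Ncoa6-KO libraries. Normalized counts are counts scaled by edgeR's TMM factors to the mean effective library size. The 8 macrophage markers were all present, summing to between 248932 and 577703 normalized counts. Of 18 markers of other blood, stromal and endothelial cells, 7 fell under the filter on low counts, among them Cd3e and Ly6g, and the others summed to 925 to 1197 with medium alone and 3933 to 7566 with LPS + MSU. That later sum was mostly Kdr, a VEGF receptor gene, with 2965 to 6679 normalized counts.

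A KRAB box pattern was found in the translated transcripts of 100 of the 219 genes, and 119 had no match. The pattern misses divergent boxes, so 100 is a lower count. At least 1 C2H2 finger was found in 216, with a median of 10 fingers and at most 36, in Zfp142. Zfp330, Zfp503 and Zfp703 had none, and 10 genes had 1. Genes with a KRAB match had a median of 12 fingers and 65 of the 100 lay within 100 kb of another of the 219, against a median of 8 fingers and 34 of 119 genes without a match. Reads of 13 genes are uncertain because over 20% of their 100-base stretches also occur in transcripts of other genes, up to 79.9% for Zfp966, 75.5% for Zfp433, 70.3% for Zfp991 and 67.3% for Zfp97.

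A few promoters of the class are shown first, with the motif of ETS factors, a family active in macrophages. RefSeq (GRCm38.p6) gave 218 promoter windows, 250 bases before to 50 after a start, for 179 of the 219 genes. The ETS motif CCGGAAGT, on either strand, occurred in 11.9% of these windows, in 9.16% of 10339 windows of genes with a mean of at least 100 counts and in 3.89% of all 32851 windows. The windows of the 219 genes had a median of 16 CpG, against 21 and 7 in those larger sets. Below, capitals mark the ETS motif or its reverse complement with 30 flanking bases on each side, 5′ to 3′ on the gene's strand, in the 4 motif-holding genes with the largest falls under LPS + MSU and the 2 with the largest positive changes.
Zfp316, chr5:143269973-143270086, reverse strand: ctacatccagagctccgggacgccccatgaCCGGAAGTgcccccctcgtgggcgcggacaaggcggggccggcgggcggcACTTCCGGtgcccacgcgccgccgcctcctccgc
Zfp60, chr7:27731353-27731420, forward strand: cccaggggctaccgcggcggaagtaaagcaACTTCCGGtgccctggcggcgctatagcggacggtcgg
Zfp141, chr7:42505731-42505798, reverse strand: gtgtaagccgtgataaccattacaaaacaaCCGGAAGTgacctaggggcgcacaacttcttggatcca
Zfp59, chr7:27838453-27838520, forward strand: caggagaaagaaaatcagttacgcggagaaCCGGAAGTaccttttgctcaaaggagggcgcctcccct
Zfp945, chr17:22867171-22867238, reverse strand: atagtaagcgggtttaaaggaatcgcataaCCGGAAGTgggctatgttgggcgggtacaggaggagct
Zfp263, chr16:3744060-3744127, forward strand: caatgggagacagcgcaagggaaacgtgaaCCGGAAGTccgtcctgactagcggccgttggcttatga
The window of Zfp316 held the motif at 2 places, once on each strand. Counted from the start, the motif began at position -9 in Zfp263 and -15 in Zfp141. These genes moved in both directions: the log2 fold change with LPS + MSU in WT BMDMs was -2.07 for Zfp316, -2.02 for Zfp60, -0.97 for Zfp141, -0.97 for Zfp59 (28.5% of its sequence shared), 0.42 for Zfp945, which did not pass the test (edgeR adjusted p = 0.1008), and 1.32 for Zfp263. Of the 24 genes that held the motif, 16 fell and 2 rose in WT, at a median of -0.48 on the log2 scale, and of the 155 with a window and no motif, 90 fell and 29 rose, with a median of -0.54. Among the other patterns searched on both strands, GCATGCGC, the NRF1 motif, occurred in 5.96% of the class's windows, in 5.6% of those of genes with a mean of at least 100 counts and in 2.71% of all. CTCGCGAG occurred in 0.917%, 2.06% and 0.919% of the same 3 sets. Of the patterns added after the data were seen, TGACGTCA, the CRE, occurred in 3.67%, 3.19% and 1.79% of them. An NF-κB consensus occurred in 3.21%, 5.21% and 4.51%, and part of the interferon response element, GAAA repeated after any 2 bases, in 0.917%, 3.51% and 3.44%. A match is only a description of the letters in the window.

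With LPS + MSU, more Zfp genes fell than rose. In WT BMDMs 128 of the 219 were lower and 34 higher at an edgeR quasi-likelihood adjusted p under 0.05, and 57 did not pass the test. Of the 128, 62 were among the 75 genes with a mean of at least 100 counts in only 1 of the 2 conditions. The genes past that mean in both conditions are described below. Among all 17625 genes tested, 30.5% were lower and 24.7% higher, and among the 10293 with a mean of at least 100 counts, 40.1% were lower and 30.8% higher. The median log2 fold change was -0.48 for the Zfp genes, -0.12 for all genes and -0.09 for genes with a mean of at least 100. In bulk RNA fewer cells of a type and less RNA per cell cannot be told apart.

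The response of Ncoa6-KO BMDMs, measured in 4 other libraries, had the same shape. There 120 Zfp genes were lower and 36 higher, with a median of -0.47. Of all genes, 27.9% were lower and 25.2% higher, with a median of -0.07, and of genes with a mean of at least 100, 36.9% were lower and 31.8% higher. Falls passed the test in both genotypes for 113 genes and rises for 33, none passed in opposite directions, and 203 of the 219 had the same sign. The 146 genes called in both were 90.1% of those called in WT and 93.6% of those called in Ncoa6-KO. For all genes with a mean of at least 100 these shares were much the same, 90.3% and 93.1%. Of those 10293 genes, 9600 had the same sign. Across the 219 genes the changes in both genotypes had Pearson's r = 0.98 and Spearman's rho = 0.95, against 0.98 and 0.98 for all genes with a mean of at least 100, and genes are not independent replicates.

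**Figure D1:**
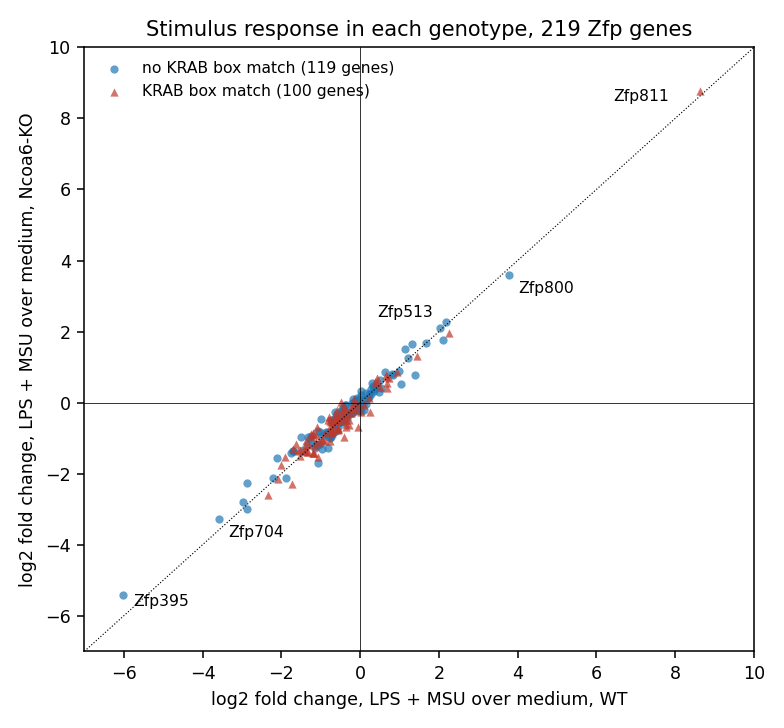
Each point is 1 of the 219 Zfp genes, with its log2 fold change (LPS + MSU over medium alone) in WT BMDMs on the x axis and in Ncoa6-KO BMDMs on the y axis. Triangles are the 100 genes with a KRAB box match, circles the 119 without, and the dotted line marks equal change. Most points lie below 0 on both axes and near the line, with Zfp811 at the top right and Zfp395 at the bottom left.

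Scaling sets where 0 lies in this comparison. With DESeq2's size factors the median of all genes in WT moved by 0.11 on the log2 scale, and with library totals alone by -0.67. The Zfp genes' median relative to that of all genes was -0.37 with TMM, -0.37 with DESeq2's size factors and -0.38 with totals alone. The 219 genes together took 0.435% and 0.461% of all counts in resting and 0.282% and 0.305% in stimulated WT libraries, and 0.450% and 0.441% in resting and 0.291% and 0.299% in stimulated Ncoa6-KO libraries. After TMM scaling their sum ran from 100682 to 108565 normalized counts in resting and from 105619 to 113474 in stimulated libraries. The 2 conditions thus overlapped in the summed level, in which a few abundant genes that rose stood beside many that fell.

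Of the 219 genes, 75 had a mean of at least 100 counts in only 1 of the 2 conditions, and a gene that entered only through its higher condition had to differ. Among the 144 past 100 in both conditions, 66 were lower and 32 higher in WT, with a median of -0.28. The 8912 genes tested that were past 100 in both conditions had 35.2% lower and 32.9% higher, with a median of -0.01. In Ncoa6-KO BMDMs the 144 genes had 54 lower and 34 higher, with a median of -0.23, beside 0.03 for those 8912 genes.

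The counts were also taken with and without a KRAB match. In WT, 67 of the 100 were lower and 11 higher, at a median of -0.61 on the log2 scale, and of the 119 without a match 61 were lower and 23 higher, with a median of -0.38. In Ncoa6-KO BMDMs the counts were 65 lower and 13 higher with a median of -0.61, and 55 lower and 23 higher with a median of -0.29. Genes with a match also had lower levels, with a median of 207 counts against 419. Among genes past 100 counts in both conditions, 29 of 51 with a match and 37 of 93 without one were lower in WT, with medians of -0.41 and -0.19. No test of the difference between these sets was made. By finger number the medians in WT were -0.46 for the 36 genes with 0 to 4 fingers, -0.46 for the 74 with 5 to 10 and -0.52 for the 109 with 11 or more.

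**Figure D2:**
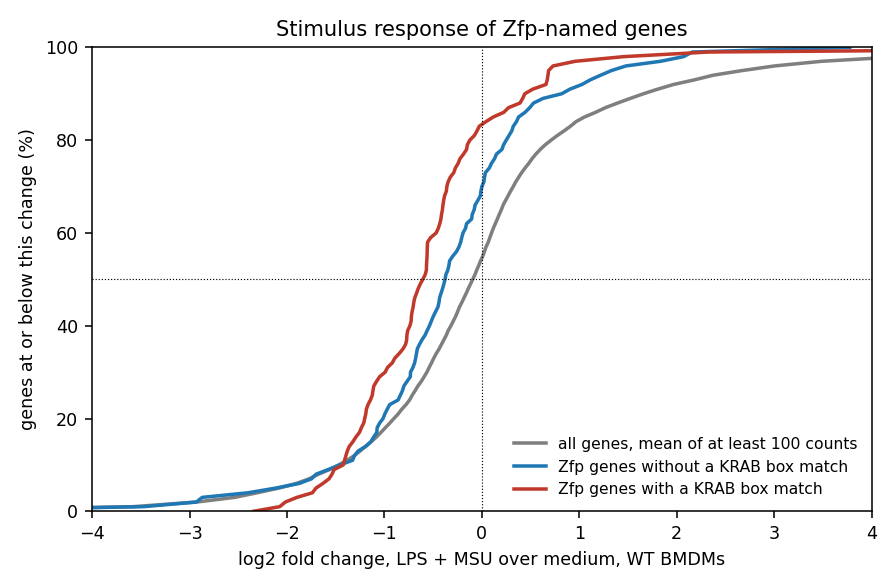
Curves give the percentage of genes (y axis) at or below each log2 fold change with LPS + MSU in WT BMDMs (x axis, drawn from -4 to 4), for Zfp genes with and without a KRAB box match and for all genes with a mean of at least 100 counts. At the 50% line the curves cross at -0.61, -0.38 and -0.09, and the Zfp curves lie to the left of that of all genes from there upwards.

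More genes were lower than higher on each of the 8 chromosomes that hold at least 10 of them, in shares that varied. All genes with a mean of at least 100 counts, not split by chromosome, had 40.1% lower and 30.8% higher in WT. By chromosome the share of Zfp genes that were lower ran from 46.2% on chromosome 6, with 38.5% higher, to 83.3% on chromosome 5, with 8.33% higher. On chromosome 7, 29 of 49 were lower and 7 higher in WT, on chromosome 17, 22 of 34 were lower and 6 higher, and on chromosome 5, 10 of 12 were lower and 1 higher. On chromosome 13, 11 of 15 were lower and 2 higher, on chromosome 8, 8 of 17 were lower and 4 higher, and on chromosome 6, 6 of 13 were lower and 5 higher. Chromosome 9 had 7 of 13 lower and 2 higher, and chromosome 4 had 7 of 10 lower and 0 higher. A run of 18 genes on chromosome 17 from Zfp160 to Zfp213 (chr17:21008903-23564238, GRCm38), 17 of them with a KRAB match, had 13 lower and 3 higher in WT. In Ncoa6-KO BMDMs that run had 8 lower and 4 higher. A run of 9 on chromosome 7 from Zfp553 to Zfp646 had 6 lower and 0 higher in each genotype, with changes from -1.53 to 0.07 in WT. A run of 9 on chromosome 13 from Zfp455 to Zfp65 had 7 lower and 1 higher in WT, and 6 and 1 in Ncoa6-KO. The other runs of at least 8 genes, with gaps of at most 500 kb, were these. Zfp871 to Zfp414 on chromosome 17 (11 genes) had 7 lower and 3 higher in WT, and 8 and 3 in Ncoa6-KO. Zfp398 to Zfp775 on chromosome 6 (8 genes) had 5 and 2 in each genotype. Zfp84 to Zfp146 on chromosome 7 (8 genes) had 4 and 1 in WT, and 6 and 2 in Ncoa6-KO.

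Zfp811, a KRAB zinc finger gene with 13 fingers, was the exception in size. It had 0, 10, 6 and 3 counts in the 4 libraries with medium alone (WT 1 and 2, then Ncoa6-KO 1 and 2) and 1034, 1357, 1189 and 1156 counts in those with LPS + MSU. Every stimulated library was far above every resting one, and the genotypes overlapped. In WT it rose by 8.64 on the log2 scale (standard error 0.37, adjusted p = 8.46e-09) and in Ncoa6-KO BMDMs by 8.78 (adjusted p = 8.50e-09). With so few resting counts its size is loose: leaving out 1 library moved the WT value between 7.57 and 13.66. Its RefSeq promoter is shown whole, chr17:32809882-32810181 on the reverse strand, with the 50 transcribed bases in capitals.
Zfp811: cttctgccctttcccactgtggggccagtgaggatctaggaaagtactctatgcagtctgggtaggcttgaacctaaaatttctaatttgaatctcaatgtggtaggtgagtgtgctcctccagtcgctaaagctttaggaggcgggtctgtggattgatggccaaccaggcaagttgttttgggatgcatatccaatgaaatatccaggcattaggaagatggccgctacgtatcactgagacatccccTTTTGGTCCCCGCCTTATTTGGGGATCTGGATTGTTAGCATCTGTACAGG
The window held 5 CpG and none of the ETS, NRF1 or CTCGCGAG letters.

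Its neighbours, all KRAB genes, did not rise to such a degree. Zfp871, whose start lies 21.6 kb away on one side, rose with a log2 fold change of 0.67 (adjusted p = 0.000159) in WT. Zfp799, 20.3 kb away on the other side, fell by 0.83 on the log2 scale (adjusted p = 0.000695). Of the 9 other Zfp genes within 600 kb, Zfp952 also rose (0.94), Zfp472, Zfp763, Zfp563, Zfp81 and Zfp101 fell, with values from -1.89 to -0.56, and Zfp870 was at -0.05 (adjusted p = 0.825).

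**Figure D3:**
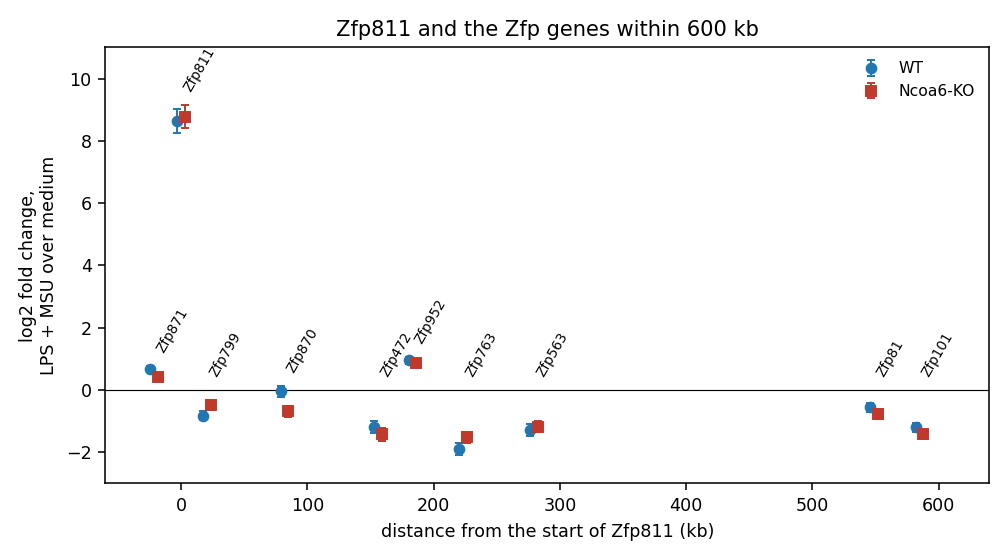
Log2 fold change with LPS + MSU (y axis, bars are standard errors of the fit) of the 10 Zfp genes with a mean of at least 100 counts within 600 kb of the start of Zfp811, by distance of their starts in kb (x axis), in WT (circles) and Ncoa6-KO (squares) BMDMs. Zfp811 stands at 8.64 and 8.78 and every other gene lies between -1.89 and 0.94.

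Zfp800, which has no KRAB match, was the next largest riser and among the most abundant members once stimulated. It had 357 and 398 normalized counts in WT and 375 and 366 in Ncoa6-KO libraries at rest. Stimulated libraries had 4947 and 5389 in WT and 4297 and 4631 in Ncoa6-KO. The conditions did not overlap in either genotype, and the rise was 13.7-fold in WT (log2 3.78, standard error 0.11, adjusted p = 5.96e-10) and 3.59 on the log2 scale in Ncoa6-KO. Zfp513, also without a KRAB match, went from 889 and 897 to 3896 and 4173 in WT and from 740 and 627 to 3406 and 3147 in Ncoa6-KO libraries. All 4 stimulated libraries stood above all 4 resting ones, with log2 fold changes of 2.18 and 2.26. Zfp658, a KRAB gene, rose by 2.27 in WT and 1.96 in Ncoa6-KO BMDMs on the log2 scale. Like Zfp811, it passed the mean of 100 only through its stimulated libraries, which required a rise. The other members among the 8 largest rises in WT were Zfp281 (2.10), Zfp324 (2.02), Zfp319 (1.68) and Zfp719 (1.44). In Ncoa6-KO BMDMs Zfp263 (1.66) was in that group in place of Zfp719 (1.304).

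Per kilobase of exon, the highest mean levels in WT BMDMs with medium alone were those of Zfp207 (552 normalized counts per kb), Zfp106 (410), Zfp991 (407, most of its sequence shared with other genes) and Zfp263 (361). With LPS + MSU they were those of Zfp513 (1629), Zfp207 (1105), Zfp800 (1070) and Zfp263 (904). Zfp811 had 1.21 per kb with medium alone, the lowest of the 219.

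Among the genes that fell, Zfp395 and its paralog Zfp704 stood first. Zfp395 had 763 and 686 normalized counts in WT and 722 and 508 in Ncoa6-KO libraries at rest. Stimulated libraries had 4.16 and 17.9 in WT and 14.4 and 14.0 in Ncoa6-KO. The groups lay far apart, at -6.02 on the log2 scale in WT (standard error 0.33, adjusted p = 4.57e-08) and -5.43 in Ncoa6-KO. With so few stimulated counts the WT value is loose, at -5.28 without WT LPS + MSU library 1 and -7.36 without library 2. Zfp704 had 883 and 996 in WT and 1330 and 856 in Ncoa6-KO libraries at rest, and after stimulation 73.4 and 82.6 in WT and 111 and 115 in Ncoa6-KO. Its libraries did not overlap between conditions either, with log2 fold changes of -3.59 and -3.28. Both proteins had 1 finger matched and no KRAB match. Before scaling, both genes passed the mean of 100 only through their resting libraries, so their place in the class required a difference in this direction. Their values are given as a description.

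The next falls in WT were those of Zfp608 (-2.96), Zfp362 (-2.87), Zfp41 (-2.87), Zfp398 (-2.34), Zfp652 (-2.22), which works with the corepressor Cbfa2t3, and Zfp61 (-2.11). Zfp609, the paralog of Zfp608, fell by 1.01 on the log2 scale. In Ncoa6-KO BMDMs the 8 largest falls held Zfp760 (-2.29) and Zfp316 (-2.15) in place of Zfp652 (-2.12) and Zfp61 (-1.55). Of those named as falling here, Zfp398, Zfp760 and Zfp316 had a KRAB match. Among the genes past 100 counts in both conditions, no value lay below -2.22 in WT or -2.12 in Ncoa6-KO BMDMs. Larger falls thus belong to genes that entered the class through their resting libraries.

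**Figure D4:**
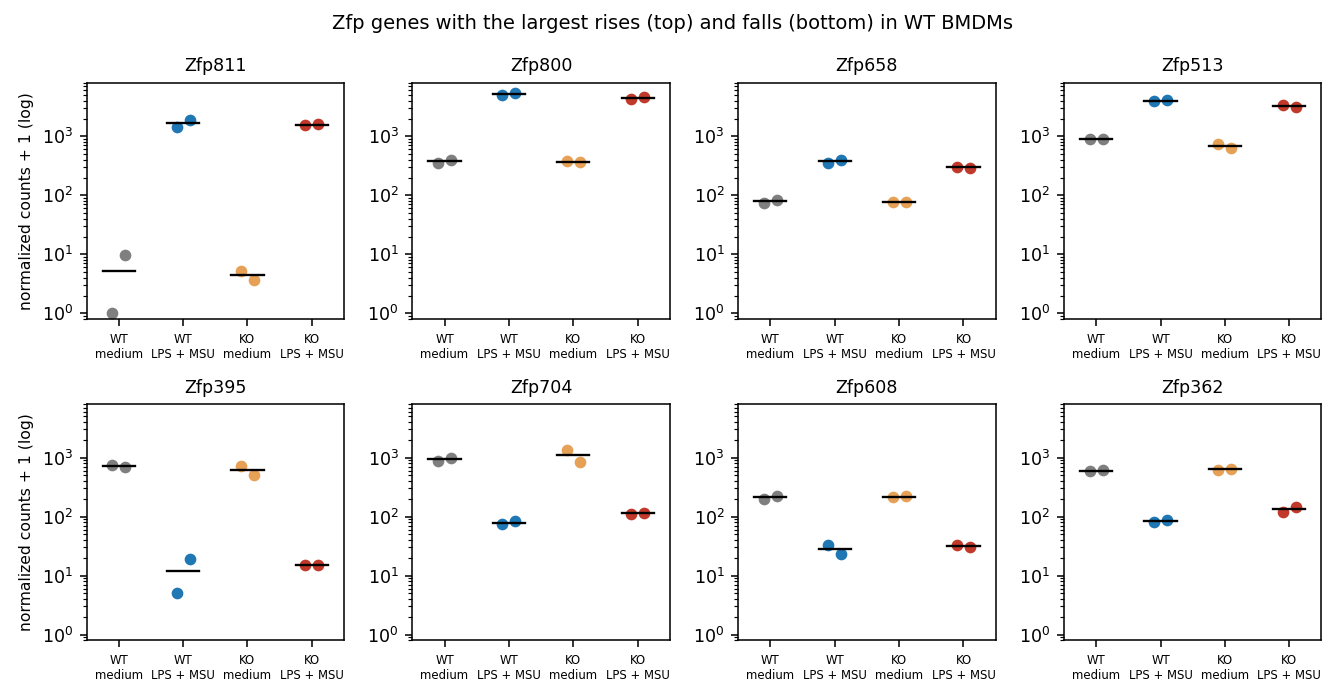
Normalized counts plus 1 (log axis) of the 4 Zfp genes with the largest rises and the 4 with the largest falls in WT BMDMs, 1 point per library and a bar at the mean of the 2 libraries, by genotype and condition. In each panel the stimulated libraries are apart from the resting ones, and WT and Ncoa6-KO points of a condition lie close together.

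Of 9 Zfp genes whose products work in RNA handling, translation, ubiquitination or the spindle, 1 rose and 3 fell in WT and 5 did not pass the test, with a median of -0.17. Their shares were 11.1% higher and 33.3% lower, beside 30.8% and 40.1% of all genes with a mean of at least 100 counts. Zfp207 (BuGZ), which helps chromosomes align on the spindle, rose from 3457 and 3898 to 7333 and 7375 normalized counts in WT and from 3240 and 3191 to 6329 and 5668 in Ncoa6-KO libraries. Its fold change was 2.00 in WT (adjusted p = 6.15e-06) and 1.87 in Ncoa6-KO BMDMs. Zfp598, the ubiquitin ligase that senses collided ribosomes, fell (log2 fold change -1.02 in WT, -0.83 in Ncoa6-KO), as did Zfp326, a splicing factor of the DBIRD complex (-0.69 and -0.57), and Zfp638, which acts with the HUSH complex on retroviral DNA (-0.37 and -0.43). Zfp91, a ubiquitin ligase of the noncanonical NF-κB pathway, did not pass the test in either genotype. It had 3115 and 3115 normalized counts in resting and 3171 and 3028 in stimulated WT libraries. Zfp106 (-0.22 and -0.01), the ribosome maturation factors Zfp622 (-0.17 and -0.05) and Zfp593 (0.03 and 0.33) and the nucleolar protein gene Zfp330 (0.03 and 0.23) did not pass either.

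Of 15 promoter and chromatin regulators, 5 rose (33.3%) and 6 fell (40.0%) in WT. These shares were near those of all genes with a mean of at least 100 counts, 30.8% higher and 40.1% lower. Zfp281, a GC-box binding factor of pluripotent cells, rose from 594 and 615 to 2869 and 2310 normalized counts. Zfp131 rose (0.81 in WT and 0.81 in Ncoa6-KO), as did Zfp335 (0.50 and 0.62), whose product NIF-1 binds NCOA6. Zfp335 had 609 and 670 normalized counts in WT and 597 and 556 in Ncoa6-KO libraries at rest, and after stimulation 851 and 956 in WT and 834 and 946 in Ncoa6-KO, so that the genotypes overlapped under stimulation. Zfp143, an activator of many promoters, rose by 0.32 and 0.46, and Zfp384 by 0.27 in WT, with 0.24 in Ncoa6-KO (adjusted p = 0.0549). With library totals alone in place of TMM, Zfp335, Zfp143 and Zfp384 turned negative in WT, to -0.17, -0.35 and -0.40. The WT calls of Zfp143 and Zfp384 were also lost without either WT medium library, that of Zfp143 without WT LPS + MSU library 1 and that of Zfp384 without WT LPS + MSU library 2, with adjusted p up to 0.112 and 0.132.

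The regulators that fell were Zfp217, a CtBP and LSD1 corepressor (-0.81 in WT and -1.27 in Ncoa6-KO), Zfp318, which controls IgD expression in B cells (-0.96 and -1.31), Zfp609 (-1.01 and -1.17), Zfp644, a partner of the G9a methyltransferase (-0.58 and -0.33), Zfp516 (-0.35 and -0.35), a regulator of brown fat genes, and Zfp462 (-1.70 and -1.35). Zfp148 (-0.04 and -0.20), Zfp410, the activator of Chd4 (-0.10 and -0.23), and the Zmynd8 partners Zfp592 (-0.01 and 0.11) and Zfp687 (0.21 and 0.12) did not pass the test. Of 3 regulators of development, Zfp608 and Zfp703 (-0.39 and -0.40) fell, and Zfp467 (-0.33 and -0.42) did not pass. Leaving out 1 library ended the calls of Zfp516 and Zfp703 in WT (WT medium library 2 or either WT LPS + MSU library, adjusted p up to 0.0844 and 0.131) and in Ncoa6-KO (medium library 1 or LPS + MSU library 1, up to 0.0858 and 0.1303). That of Zfp644 in Ncoa6-KO was lost without any 1 of the 4 Ncoa6-KO libraries.

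Among 6 genes known for imprint or retroelement silencing, all with a KRAB match, 1 rose and 3 fell in WT. Beside them, 30.8% of all genes with a mean of at least 100 counts rose and 40.1% fell in WT. Falls were thus common among all such genes, and the difference from these shares was not tested. Zfp809, which recognises the primer binding site of retroviruses, went from 259 and 268 to 99.7 and 129 normalized counts in WT and from 266 and 271 to 124 and 171 in Ncoa6-KO libraries. All stimulated libraries were below all resting ones, with log2 fold changes of -1.20 (adjusted p = 0.000160) and -0.87. Before scaling, Zfp809 passed the mean of 100 only through its resting libraries, so its place in the class required a fall. Its values are given as a description. Zfp932 (-0.71 and -0.80) and Zfp961 (-0.70 and -0.52) fell and Zfp429 rose (0.68 and 0.71). Zfp961 lost its WT call without WT LPS + MSU library 2 (adjusted p = 0.0747), and its Ncoa6-KO call without any 1 of 4 libraries, among them both WT medium libraries (up to 0.247). Zfp445, a protector of imprints, was at 0.22 and 0.14 and did not pass the test. Zfp568, the repressor of a placental Igf2 transcript, was at -0.40 in WT (adjusted p = 0.0631) and fell in Ncoa6-KO BMDMs (-0.97).

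The machinery that KRAB proteins recruit also moved with LPS + MSU, in both directions. Of 21 tested genes of that list, 13 fell and 6 rose in WT, with a median of -0.52, and 13 fell and 7 rose in Ncoa6-KO, with a median of -0.39. In WT these were 61.9% and 28.6% of the list. Of all genes with a mean of at least 100 counts, 40.1% fell and 30.8% rose, so movement in both directions was common. The difference was not tested. Trim28, the KRAB corepressor, went from 3425 and 3393 to 2147 and 2428 normalized counts in WT (log2 fold change -0.58, adjusted p = 0.00180) and fell by 0.35 in Ncoa6-KO. Setdb1 fell from 1997 and 1922 to 928 and 1041 in WT (log2 fold change -0.99), and Dnmt1, the maintenance DNA methyltransferase, from 5780 and 6052 to 1175 and 1418 (-2.19). Cbx3 and Cbx5, which encode HP1 proteins, and Uhrf1 also fell in both genotypes. Daxx, a histone H3.3 chaperone gene, rose from 1251 and 1162 to 21791 and 21597 (log2 fold change 4.17), and Resf1, Hdac1, Morc3, Pphln1 and Kdm1a also rose in both genotypes. Proliferation markers moved with the stimulus as well: 11 of 12 were lower in each genotype, and their sum was 63154 and 61815 normalized counts in resting and 30133 and 31980 in stimulated WT libraries, and 50123 and 57716 in resting and 27450 and 27439 in stimulated Ncoa6-KO libraries. Their part in the fall of the Zfp genes was not tested.

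Few Zfp genes differed between genotypes. With medium alone edgeR called 1 of the 219 genes (0.457%) higher and 0 lower in Ncoa6-KO BMDMs, where 0.573% of all genes were higher and 1.3% lower. At an unadjusted p under 0.05 from edgeR, 5 were higher and 6 lower, where 558 and 1175 of the 10293 genes with a mean of at least 100 counts were. DESeq2 also called 1 of the 219 higher and 0 lower. With LPS + MSU 3 were higher and 3 lower (1.37% each), where 1.96% of all genes were higher and 1.63% lower. Of the 10293 tested genes of any kind with a mean of at least 100 counts, 0.748% were higher and 2.14% lower in resting cells, and 2.95% and 2.63% in stimulated cells. The shares of the Zfp genes were below these, a difference that was not tested, and the counts of higher genes take in Zfp462 and Zfp697, which passed the mean of 100 through their Ncoa6-KO libraries. Medians on the log2 scale were -0.04 and -0.01, and for all genes -0.03 and 0.00. None of the 100 genes with a KRAB match was called by edgeR under either condition, while 2 and 6 of them had an unadjusted p under 0.05. Of the 10293 genes with a mean of at least 100 counts, 1733 and 2448 had such a p. The lower counts of genes with a KRAB match, a median of 207 against 419, were not allowed for.

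Zfp462 was the member called under both conditions. Its product is a chromatin regulator of stem cells with 33 fingers matched and no KRAB match (gene at chr4:54945048-55083563, forward strand, GRCm38). It had 78.1 and 79.1 normalized counts in WT and 329 and 287 in Ncoa6-KO libraries with medium alone. With LPS + MSU it had 13.9 and 34.4 in WT and 118 and 125 in Ncoa6-KO. Before scaling its 4 WT libraries held 104, 92, 10 and 25 counts, so it reached the mean of 100 that chose the class only through the Ncoa6-KO libraries, and its place in the class required a difference in this direction. Its values are given as a description. Each Ncoa6-KO library was above each WT library of the same condition, and stimulated Ncoa6-KO cells were also above resting WT cells. It was 3.92-fold higher with medium alone (log2 1.97, standard error 0.22, adjusted p = 0.00229) and 4.99-fold higher with LPS + MSU (log2 2.32, standard error 0.30, adjusted p = 0.00418). Leaving out WT medium library 1 raised the first adjusted p to 0.0640, with a log2 fold change between 1.87 and 2.06 over the libraries left out in turn. With LPS + MSU that range was 1.8 without WT LPS + MSU library 1 to 3.10 without WT LPS + MSU library 2. Per kilobase of exon it remained low, at 7.34 normalized counts in WT and 28.8 in Ncoa6-KO with medium alone.

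With LPS + MSU, Zfp697 and Zfp362 were also higher in Ncoa6-KO BMDMs. Zfp697 had 101.1 and 125 normalized counts in WT and 199 and 186 in Ncoa6-KO libraries (log2 fold change 0.76, standard error 0.17, adjusted p = 0.0361). It too passed the mean of 100 only through its Ncoa6-KO libraries, with 120, 107, 73 and 91 counts before scaling in the WT libraries. With medium alone it had 90.1 and 92.0 against 130 and 131, without passing the test (adjusted p = 0.172). Zfp362 had 79.0 and 85.4 against 120 and 143 (0.67, standard error 0.16, adjusted p = 0.0407), and 589 and 616 against 617 and 653 with medium alone. Neither gene's libraries overlapped between genotypes with LPS + MSU. Both calls held in only 2 of the 8 fits that left out 1 library, and were lost with DESeq2, with limma-voom and in the fit of the 4 libraries alone.

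Zfp821, Zfp217 and Zfp281 were lower in Ncoa6-KO BMDMs with LPS + MSU. Zfp821 had 443 and 421 normalized counts in WT and 246 and 227 in Ncoa6-KO libraries (log2 fold change -0.87, standard error 0.16, adjusted p = 0.0167). Zfp217 had 628 and 536 against 361 and 353 (-0.71, standard error 0.13, adjusted p = 0.0178). Zfp281 had 2869 and 2310 against 1894 and 1610 (-0.56, standard error 0.12, adjusted p = 0.0332). The libraries did not overlap between genotypes in any of the 3. With medium alone their log2 fold changes were -0.35, -0.24 and -0.22 and did not pass the test (adjusted p = 0.387, 0.429 and 0.539). Leaving out WT LPS + MSU library 1 or Ncoa6-KO LPS + MSU library 2 ended all 3 calls, with adjusted p up to 0.147 for Zfp821 and Zfp217 and 0.268 for Zfp281. Leaving out Ncoa6-KO LPS + MSU library 1 also ended the call of Zfp217, leaving out either WT medium library ended that of Zfp281, and so did the fit of the 4 libraries alone (adjusted p = 0.0754).

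**Figure D5:**
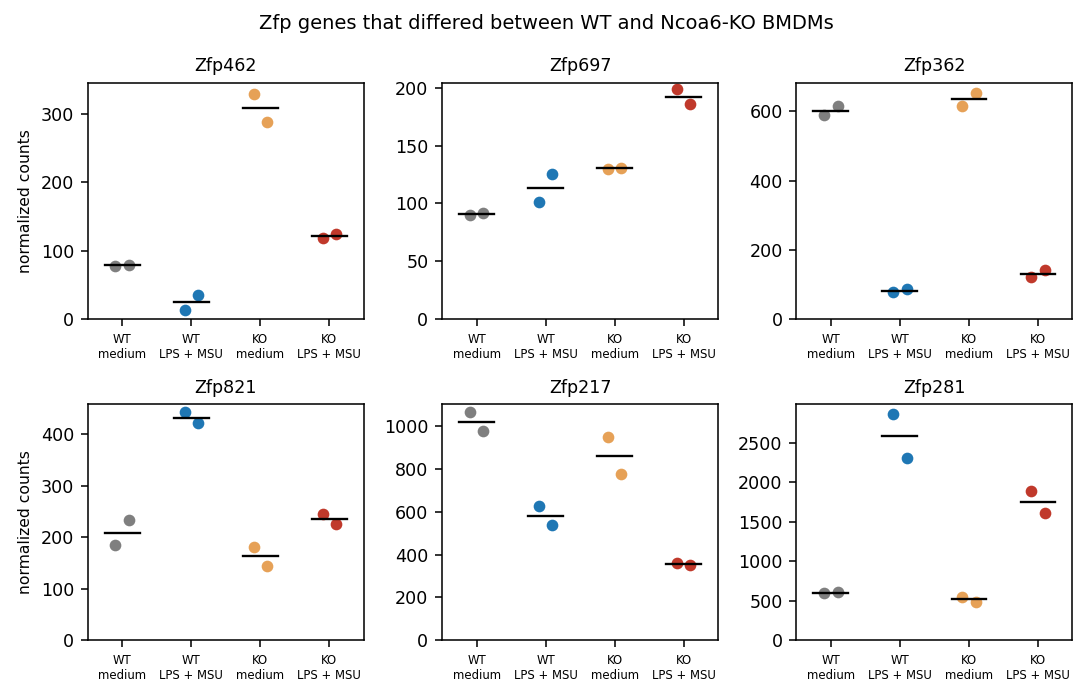
Normalized counts (linear axes from 0) of the 6 Zfp genes called between genotypes, 1 point per library and a bar at the mean of the 2 libraries, by genotype and condition. Zfp462 is the gene whose Ncoa6-KO libraries are far above the WT libraries with medium alone (329 and 287 against 78.1 and 79.1), and the genotypes of the other 5 differ most with LPS + MSU.

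Macrophage and proliferation markers differed between genotypes too. Of 8 macrophage markers 3 were lower in resting and 3 in stimulated Ncoa6-KO BMDMs. Among them were Lyz2, the locus that carries Cre, with log2 fold changes of -1.01 and -0.95, and Fcgr1, with log2 fold changes of -2.05 and -1.38. Of 12 proliferation markers 2 and 4 were lower. Of the 11 markers of other cells that were tested 1 was higher under each condition, Ctsk, an osteoclast protease gene, with log2 fold changes of 0.68 (adjusted p = 0.0213) and 0.80 (adjusted p = 0.0090). The part of these markers in the differences of Zfp genes was not tested. Of the machinery list, Daxx was lower with medium alone (log2 fold change -0.55, adjusted p = 0.0462).

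The difference between the genotypes' responses passed the test for 0 of the 219 genes in edgeR and for 0 in DESeq2, as for 0% of all genes in edgeR. At an unadjusted p under 0.05 there were 11, with the response more positive in Ncoa6-KO BMDMs for 4 and more negative for 7. Of all 17625 genes tested, 1045 had such a p. Of the 10293 with a mean of at least 100 counts 761 did, 551 of them more positive and 210 more negative. The share among the Zfp genes was not above these. The smallest p were those of Zfp362 (unadjusted p = 0.00945 from edgeR, difference 0.60 on the log2 scale), Zfp949 (0.0201, -0.62), Zfp217 (0.0243, -0.46), Zfp146 (0.0249, 0.53) and Zfp870 (0.0259, -0.64). Zfp949 had 215 and 218 normalized counts in resting and 630 and 518 in stimulated WT libraries, and 291 and 241 in resting and 521 and 396 in stimulated Ncoa6-KO libraries. The adjusted p of these 5 was 0.630 or more.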

How the data were processed

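Poly(A) RNA of BMDMs was sequenced with a TruSeq stranded mRNA kit. The authors aligned reads with STAR 2.7.3a to GRCm38 (annotation release 101) and deposited RSEM 1.3.3 expected counts per gene, not normalized, for 50615 genes in 8 libraries. Expected counts estimate how reads shared by similar genes divide, which bears on zinc finger paralogs. Counts were rounded, genes with a sum under 10 were left out (17625 remained), and edgeR 4.0.16 in R 4.3.3 fitted the 4 groups together (TMM factors 0.766 to 1.29, quasi-likelihood, 4 residual degrees of freedom, Benjamini-Hochberg adjusted p-value under 0.05 over all genes). The authors' DESeq2 was an alternative (1.42.0), with DESeq2's size factors, library totals only, filterByExpr, no filter, limma-voom (limma 3.58.1), a replicate block, the 4 libraries compared alone, and each library left out. Library totals only, and leaving out genes under 100 counts in either condition, were added after seeing the data. An exact permutation test of 2 against 2 libraries cannot give p below 0.333, and p-values measure the spread between these libraries. The code was tested on simulated data.

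Members and lists were chosen with earlier results of these data known. Named genes were Ncoa6, members called in a knockout comparison, the 8 largest rises and 8 largest falls per stimulus comparison among called members whose libraries did not overlap, members of role lists, called genes of the silencing machinery, the genes next to the limit and the 5 smallest interaction p. Genes named for their neighbourhood, motif, finger number, shared sequence or level per kilobase were chosen after their values were seen. KRAB boxes and fingers were matched as patterns in translated GENCODE M21 transcripts. The machinery list held 22 genes, of which 1 symbol (Tasor) had no match.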

Additional observations from a re-analysis of the deposited data

How the results depend on the processing

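The cause of the differences listed here was not tested unless the setting removes genes or libraries. For LPS + MSU in WT BMDMs the median was -0.37 with DESeq2, -0.37 with its size factors in edgeR, -1.16 with library totals only, -0.37 for members with a mean of at least 200 counts, -0.67 over all Zfp genes tested and -0.28 over members past 100 in both conditions. The number higher was 12 with library totals only and 13 with an absolute log2 fold change over 1. The number lower was 55 with that limit, 75 at a mean of at least 200 and 66 for members past 100 in both conditions. In Ncoa6-KO BMDMs the medians under the same settings were -0.41, -0.41, -1.10, -0.29, -0.58 and -0.23, and -0.55 at a mean of at least 50. The number higher was 12 with totals only and 11 with the fold limit, and the number lower 185 with totals only, 50 with the fold limit, 64 at a mean of at least 200, 185 over all Zfp genes and 54 for members past 100 in both conditions. With library totals only, called rises turned negative for Zfp821 (-0.10) and Zfp697 (-0.0733) in Ncoa6-KO, Zfp143 (-0.35 in WT, -0.17 in Ncoa6-KO), Zfp384 (-0.40 in WT) and Zfp335 (-0.17 and -0.0077). Between genotypes with medium alone, the number lower was 1 without a filter, and the number higher 0 at a mean of at least 200 or past 100 in both conditions and 2 over all Zfp genes. With LPS + MSU the number higher was 1 with DESeq2, limma-voom, the 4 libraries alone, the fold limit, a mean of at least 200 and members past 100 in both conditions, and 6 without a filter. The number lower was 8 without a filter and 0 with the fold limit, and the median 0.0585 with totals only. Leaving out each library in turn gave 0 to 1 higher and 0 to 1 lower with medium alone, and 1 to 3 higher and 0 to 4 lower with LPS + MSU. A lone library left in a group is assumed to vary like the other groups. The 2 libraries of a group come from different mice, and whether same-numbered libraries of different conditions share a mouse is not stated in the sources used here. The correlation of same-numbered deviations across genes was 0.04 to 0.35, highest between the conditions of 1 genotype (0.28 in WT and 0.35 in Ncoa6-KO). The replicate block gave 1 higher and 1 lower in resting cells, and 6 higher and 6 lower in stimulated cells. That block was 1 term across all groups. It also joined same-numbered WT and Ncoa6-KO libraries, which come from different mice, so it cannot stand for pairing within a genotype. No setting gave a called interaction among the 219 genes. Over all values computed under an alternative, 3482 kept their direction and side of the threshold, 84 no longer passed it, 42 newly passed, 7 reversed, and 104 moved, counts by over 1.5 times and other values by over their error or spread.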

Other observations

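Values with LPS + MSU were also taken for the 116 Zfp genes that were tested but lay under a mean of 100 counts. In WT BMDMs 59 were lower (50.9%) and 3 higher (2.59%), at a median of -1.07 on the log2 scale. In Ncoa6-KO BMDMs 65 were lower (56.0%) and 4 higher (3.45%), with a median of -1.10. Of all 17625 genes tested, 30.5% were lower and 24.7% higher in WT, and 27.9% and 25.2% in Ncoa6-KO. No share was taken over other genes under a mean of 100. Counts of the 116 genes are low, so each fold change is loose. Between genotypes 1 of the 116 was higher in resting Ncoa6-KO BMDMs and 0 passed the edgeR test with LPS + MSU, where 8 had an unadjusted p under 0.05. Of all 17625 genes tested, 3062 had such a p with LPS + MSU, and 0.573% were called higher in resting Ncoa6-KO BMDMs.

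Zinc finger genes of 2 other naming classes were measured beside them at the same limit of 100 counts. Of 33 Zbtb genes, whose products join a BTB domain to zinc fingers, 16 were lower and 7 higher with LPS + MSU in WT, with a median of -0.20, and 16 lower and 5 higher in Ncoa6-KO, with a median of -0.37. Of 14 Zscan and Zkscan genes, whose products carry a SCAN domain, 7 were lower and 2 higher in WT, with a median of -0.39, and 6 lower and 2 higher in Ncoa6-KO, with a median of -0.27. Of all genes with a mean of at least 100 counts, 40.1% were lower and 30.8% higher in WT, and 36.9% and 31.8% in Ncoa6-KO. Differences between the 2 other naming classes and the Zfp genes were not tested.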
